A study of Mus musculus with 6 samples.

Results

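The secreted Wnt antagonists examined here are 10 extracellular proteins, most of which are known to keep Wnt ligands from activating their receptors. Their genes were chosen by symbol, and all 10 of the listed genes, Sfrp1, Sfrp2, Sfrp4, Frzb, Wif1, Dkk1, Dkk2, Sostdc1, Dkk3 and Dkkl1, had a row of their own on the array, out of 30749 genes tested. Cells of the epidermal side of trypsin-treated dorsal skin had been sorted as hair follicle stem cells (HFSCs) by CD34 and α6-integrin, from female mice of strain B6;129S4-Dab2tm1Cpr/J at postnatal day (PD) 35. WT mice carried Dab2 fl/fl without Cre, and Dab2-cKO mice carried Dab2 fl/fl with a tamoxifen-inducible Cre driven by the keratin 14 promoter, which is active in basal skin epithelium. Mice of both genotypes received tamoxifen at 75 mg/kg on 5 days, so Dab2-cKO mice differed from WT by the transgene as well. Each group had 3 arrays from samples called biological replicates, whether 1 sample held cells of 1 mouse or of several was not stated, and p-values measure the spread between these samples.

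Canonical Wnt signalling begins when a Wnt ligand joins a Frizzled receptor to an LRP5 or LRP6 co-receptor, after which β-catenin is stabilised and acts with TCF and LEF factors. Sfrp1, Sfrp2, Sfrp4 and Frzb (also called Sfrp3) carry a Frizzled-like domain and bind Wnt ligands, and Wif1 binds them through a domain of its own. Dkk1 and Dkk2 bind the co-receptors instead, with Kremen proteins as partners, and Sostdc1 (also called Wise or ectodin) binds the co-receptors and also BMP ligands. Dkk3 and Dkkl1 are divergent relatives, and Dkkl1, known as soggy and best described in mouse male germ cells, lacks the cysteine-rich domains with which Dkk1 holds LRP6. In hair follicles, Wnt activity accompanies entry into the growth phase (anagen), and secreted antagonists in the bulge and the surrounding dermis are known from the resting phase (telogen). By PD35, per the study, WT follicles had reached anagen II while those of Dab2-cKO were in telogen, so genotype and hair cycle phase cannot be told apart here.

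Values below are log2 signals of the array, and a difference is always arrays labelled Dab2-cKO minus WT, with the standard error (SE) of limma, a linear model fitted to all genes. Correlations across all genes were 0.991 or higher for 2 arrays of a group and 0.936 or lower for 2 arrays of different groups. The signal of Dab2 itself lay between 6.46 and 6.61 in WT and between 8.76 and 8.94 on the arrays labelled Dab2-cKO, which goes against the label, so those arrays are named by their label throughout and each direction holds only as far as the labels do. The difference of Dab2 was 2.34 (limma adjusted p = 1.35e-05), and 98.7% of all genes had a smaller difference. Where the probes of the Dab2 row lie relative to the deleted part was not examined, so whether the row reports the deletion is not known. Cells in which the keratin 14 promoter is not active keep Dab2, and their part in this signal was not tested. Of the markers used in the sort, Cd34 lay from 9.25 to 9.72 in WT and from 11.73 to 12.16 on the arrays labelled Dab2-cKO, and Itga6, which encodes α6-integrin, had means of 8.08 and 9.19. Where 18.3% of all genes rose and 32.4% fell, 7 of 13 bulge markers rose and 5 fell, namely Lhx2, Sox9, Lgr5, Tbx1 and Foxc1. On the arrays labelled Dab2-cKO, 13 of 14 fibroblast, 11 of 11 endothelial and 11 of 11 leukocyte markers rose, 6 of 8 suprabasal epidermis markers rose and 1 fell, and 12 of 12 hair shaft and inner root sheath markers, genes of the growing hair, fell. Median differences were 1.96 for the fibroblast, 2.56 for the endothelial, 2.55 for the leukocyte and 1.12 for the suprabasal epidermis markers. For the hair shaft and inner root sheath markers the median difference was -10.67. Their mean signal per array ran from 15.86 to 16.21 in WT and from 5.96 to 6.01 on the arrays labelled Dab2-cKO. From which cells of the sorted samples the antagonist signals came was not tested. In such bulk samples fewer cells of a type and less RNA per cell cannot be told apart.

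Of the 10 antagonist genes, 4 rose, 1 fell and 5 did not pass the test (limma, adjusted p under 0.05). Over all genes 18.3% were called higher and 32.4% lower. Dkkl1, Dkk2, Sfrp4 and Frzb rose, and Wif1 fell. The median difference of the 10 genes was 0.10, and that of all genes was -0.14. Signal was low for most of them. Olfactory and vomeronasal receptor genes, which skin is not expected to use, served as background, and the 95th percentile of their mean signals over all arrays was 7.26. A single level served both groups, although the receptor genes' array medians lay on average 0.79 lower on the arrays labelled Dab2-cKO. Only Sostdc1 lay above this level in both groups, Dkkl1 and Wif1 lay above it in 1 group, and the other 7 genes lay below it in both. At the 90th percentile of the same receptor genes, 6.54, Sfrp1, Sfrp4, Dkk2 and Dkk3 also passed in at least 1 group, while Sfrp2, Frzb and Dkk1 did not. Of all genes, 28.7% had a group mean above the 95th percentile level. A gene below the level in both groups is given no fold change, and a rise or fall named for such a gene is a change of a dim signal.

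**Figure D1:**
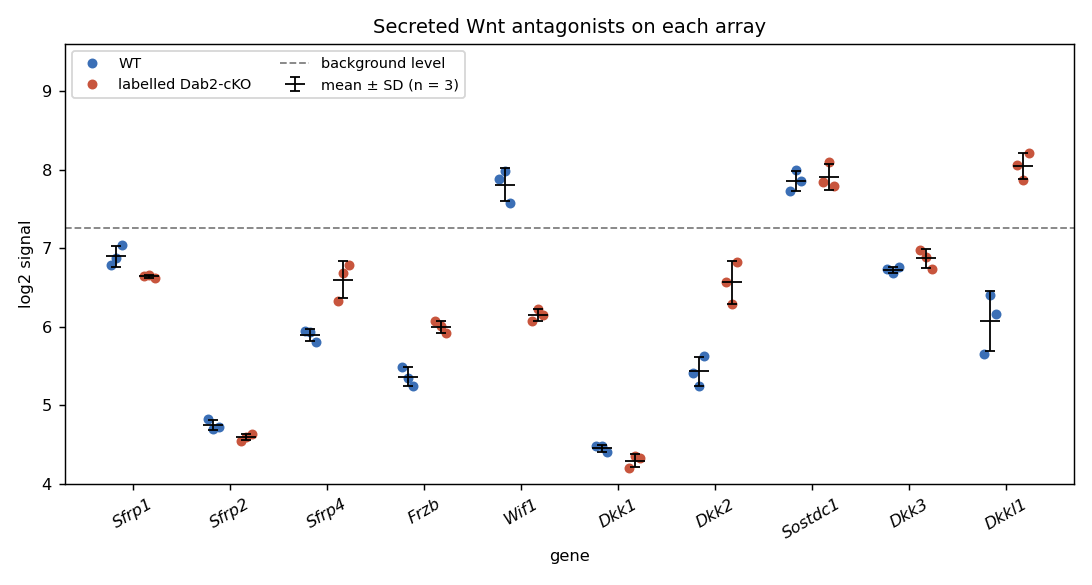
Log2 signal (y axis) of the 10 antagonist genes (x axis) on the 3 WT arrays (blue) and the 3 arrays labelled Dab2-cKO (red), with the mean and SD of each group in black and the background level of 7.26 as a dashed line. Wif1 and Dkkl1 cross the line in opposite directions, and Sostdc1 is above it in both groups.

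Promoter sequence is shown for the genes that moved except Sfrp4, for which no window was available. It sets side by side the windows of the other genes that rose and of Wif1, which fell. RefSeq (GRCm38.p6) gave a window of 250 bases before to 50 bases after the start for 6 of the 10 genes, and Dkkl1, Dkk2, Frzb and Wif1 are printed below 5′ to 3′ on the strand of the gene. Capitals mark matches on either strand to a TATA motif (TATAAA), a GC box of Sp factors (GGGCGG) or a TCF/LEF motif (CTTTGAA or CTTTGAT), and none of these overlapped another. The windows are chr7:45211834-45212133 on the minus strand for Dkkl1, chr3:132085042-132085341 on the plus strand for Dkk2, chr2:80447347-80447646 on the minus strand for Frzb and chr10:121033754-121034053 on the plus strand for Wif1.
Dkkl1: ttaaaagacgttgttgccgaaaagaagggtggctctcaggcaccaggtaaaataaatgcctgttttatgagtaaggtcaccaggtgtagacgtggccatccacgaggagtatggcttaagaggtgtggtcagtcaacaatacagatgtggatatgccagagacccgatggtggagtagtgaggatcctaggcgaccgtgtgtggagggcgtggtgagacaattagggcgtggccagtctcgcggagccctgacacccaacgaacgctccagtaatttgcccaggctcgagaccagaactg
Dkk2: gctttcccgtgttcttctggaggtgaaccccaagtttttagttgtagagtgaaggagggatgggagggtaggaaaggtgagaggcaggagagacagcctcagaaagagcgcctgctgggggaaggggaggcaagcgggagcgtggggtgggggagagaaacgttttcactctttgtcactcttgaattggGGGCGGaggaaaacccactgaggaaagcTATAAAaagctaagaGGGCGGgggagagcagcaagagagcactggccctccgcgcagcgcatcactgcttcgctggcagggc
Frzb: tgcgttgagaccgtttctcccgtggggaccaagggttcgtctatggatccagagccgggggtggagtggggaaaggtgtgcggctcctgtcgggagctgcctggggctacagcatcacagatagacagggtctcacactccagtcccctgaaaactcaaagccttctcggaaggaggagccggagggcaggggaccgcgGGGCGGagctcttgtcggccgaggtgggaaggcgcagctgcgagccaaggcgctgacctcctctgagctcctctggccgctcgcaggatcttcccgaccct
Wif1: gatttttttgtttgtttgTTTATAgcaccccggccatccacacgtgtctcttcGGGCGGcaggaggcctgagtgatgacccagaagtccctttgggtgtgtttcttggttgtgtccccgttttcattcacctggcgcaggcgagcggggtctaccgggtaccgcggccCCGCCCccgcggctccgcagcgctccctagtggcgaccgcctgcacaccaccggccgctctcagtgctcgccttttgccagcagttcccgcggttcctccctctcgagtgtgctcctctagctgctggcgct

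The start of the window is the first base of the gene for Frzb and Wif1, but lies 26 bases inside the RefSeq span of Dkk2 and 282 bases inside that of Dkkl1, so the Dkkl1 window holds no sequence before the outermost start of the gene. Dkk2 had a TATA motif 32 bases before its start and GC boxes 60 and 17 bases before it. Frzb had 1 GC box, 51 bases before the start, and the Dkkl1 window held none of the letters searched. Wif1, the gene that fell, had a GC box 197 bases before its start. On the opposite strand it had a GC box 82 bases and a TATA motif 232 bases before the start. The TCF/LEF letters were absent from all 4 printed windows, and among the 6 windows they occurred in that of Dkk1, 117 bases before the start. Of all promoter windows of this length, 8.65% held the TCF/LEF letters, 13.6% the TATA letters and 35.7% the GC box. A match describes letters and not a bound site. The G and C content was 53.0% for Dkkl1, 57.7% for Dkk2, 64.7% for Frzb and 63.0% for Wif1, beside a median of 52.7% over all windows.

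Among the Wnt-binding antagonists, Wif1 fell and Sfrp4 and Frzb rose. Wif1 was 7.88, 7.98 and 7.57 on the WT arrays and 6.07, 6.22 and 6.15 on the arrays labelled Dab2-cKO. All 3 of the latter lay below every WT array, and below the background level. Its difference was -1.67 ± 0.12 (SE, limma adjusted p = 0.000158), at least 1.46-fold lower against the background level, and a share of 4.18% of all genes had a difference further down. Sfrp4 was 5.95, 5.93 and 5.81 in WT and 6.33, 6.69 and 6.78 on the arrays labelled Dab2-cKO, without overlap. It rose by 0.70 ± 0.13 (SE, adjusted p = 0.00537), and Dab2-cKO replicate 1 was the lowest of its group. Both group means of Sfrp4 lay below the background level. Frzb was 5.49, 5.35 and 5.25 in WT and 6.07, 6.01 and 5.92 on the arrays labelled Dab2-cKO, again without overlap. It rose by 0.63 ± 0.09 (SE, adjusted p = 0.00198), with both group means below the 90th percentile level as well. The rises of Sfrp4 and Frzb did not pass once the positive control rows served as the centre of each array (adjusted p = 0.143 and 0.209).

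Sfrp1 and Sfrp2, of the same class, did not pass the test. Sfrp1, known from the mouse bulge, was 6.78, 6.87 and 7.04 in WT and 6.65, 6.66 and 6.62 on the arrays labelled Dab2-cKO. The groups did not overlap, and the difference of -0.25 ± 0.09 (SE) missed the threshold narrowly (adjusted p = 0.0517), with a 95% interval from -0.46 to -0.04. It passed as lower without WT replicate 1 (-0.31, adjusted p = 0.0366), with the test limited to protein-coding genes (adjusted p = 0.0393) and on the positive control rows (-0.60, adjusted p = 0.0119). With the receptor genes as the centre it passed in the opposite direction (0.54, adjusted p = 0.00448). Sfrp2 was 4.82, 4.70 and 4.72 in WT and 4.55, 4.60 and 4.63 on the arrays labelled Dab2-cKO. Its difference of -0.15 ± 0.07 (SE, adjusted p = 0.118) did not pass, although the groups did not overlap. Of the 10 antagonist genes, 4 had every array labelled Dab2-cKO above every WT array, 4 had the reverse and 2 overlapped. Non-overlap was common: it held upward for 22.2% of all genes, downward for 41.3% and in either direction for 63.5%.

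Among the antagonists that bind LRP5 and LRP6, Dkk2 rose while Dkk1 and Sostdc1 did not pass the test. Dkk2 was 5.41, 5.25 and 5.63 in WT and 6.57, 6.29 and 6.83 on the arrays labelled Dab2-cKO. The groups did not overlap, and the difference was 1.13 ± 0.16 (SE, adjusted p = 0.00199), with a 95% interval from 0.74 to 1.53. Both group means of Dkk2 lay below the background level, so its rise is a change of a dim signal. Dkk1 was 4.48, 4.48 and 4.40 in WT and 4.20, 4.35 and 4.33 on the arrays labelled Dab2-cKO. The groups did not overlap, and both lay below the background level. Its difference was -0.16 ± 0.08 (SE, adjusted p = 0.129), with a 95% interval from -0.34 to 0.03. At this signal these arrays say little of Dkk1 RNA. Sostdc1 was 7.73, 7.99 and 7.85 in WT and 7.84, 8.10 and 7.79 on the arrays labelled Dab2-cKO. Its groups overlapped, with a difference of 0.05 ± 0.12 (SE, adjusted p = 0.729) and a 95% interval from -0.23 to 0.33.

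Of the divergent relatives, Dkkl1 rose and Dkk3 did not pass the test. Dkkl1 had the largest difference of the 10 genes. It was 5.65, 6.40 and 6.16 in WT and 8.06, 7.87 and 8.21 on the arrays labelled Dab2-cKO, so that the highest WT array lay 1.48 log2 units below the lowest of the other group. The difference was 1.98 ± 0.20 (SE, adjusted p = 0.000529), at least 1.73-fold higher against the background level, and 98.0% of all genes had a smaller difference. Its WT arrays spread most of all members (SD 0.38, n = 3), with replicate 1 the lowest. Dkk3, a gene of bulge keratinocytes, was 6.73, 6.68 and 6.76 in WT and 6.98, 6.89 and 6.74 on the arrays labelled Dab2-cKO, with overlap. Its difference was 0.15 ± 0.09 (SE, adjusted p = 0.199), and it passed with median centring of the arrays (0.35, adjusted p = 0.0148) and with receptor centring (0.94, adjusted p = 8.82e-05), and turned to -0.20 on the positive control rows.

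**Figure D2:**
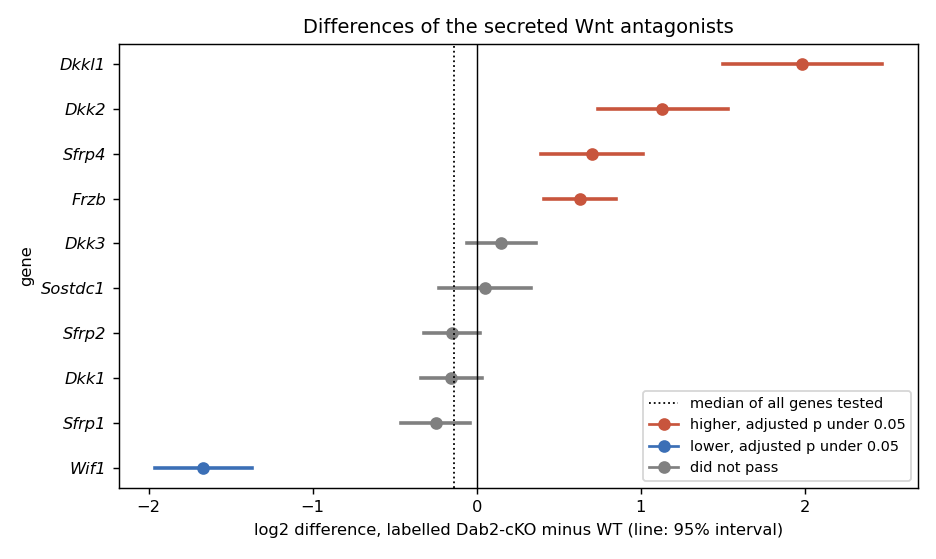
Log2 difference, arrays labelled Dab2-cKO minus WT (x axis), of each antagonist gene (y axis), as points with their 95% intervals. Dkkl1 (1.98), Dkk2 (1.13), Sfrp4 (0.70) and Frzb (0.63) lie to the right of 0, Wif1 (-1.67) lies to the left, and the dotted line is the median of all genes tested (-0.14).

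The differences can be ordered without regard to how arrays were centred, because a shift of a whole array moves every gene on it alike. From lowest to highest the order was Wif1, Sfrp1, Dkk1, Sfrp2, Sostdc1, Dkk3, Frzb, Sfrp4, Dkk2 and Dkkl1. For each of the 9 neighbouring pairs the within-array difference of the 2 genes was compared between groups. It did not overlap between groups for 3 pairs, Wif1 against Sfrp1, Dkk3 against Frzb and Dkk2 against Dkkl1, and overlapped for the other 6. The pairs were set by the same differences, and 9 of the 10 genes lay below the background level in at least 1 group, so the order describes measured signals and was not tested.

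The centring moved 0 along that order, and quantile normalization also changed the order, with Sostdc1 (0.03) below Dkk1 (0.07) and Sfrp2 (0.10). The arrays are not on a scale that all reference rows share: centring on the median of all genes moved every difference up by 0.20, centring on the receptor genes up by 0.79, and centring on the positive control rows down by 0.35. With the deposited values and these 3 centrings as well as quantile normalization, 5 genes kept their sign, namely Dkkl1 (1.64 to 2.78), Dkk2 (0.79 to 1.93), Sfrp4 (0.36 to 1.50), Frzb (0.29 to 1.43) and Wif1 (-2.01 to -0.87). Dkkl1, Dkk2 and Wif1 passed the test in all 5 settings. The signs of Sfrp1, Sfrp2, Dkk1, Sostdc1 and Dkk3 changed with the setting. Counts moved accordingly, from 4 higher and 1 lower as deposited to 9 higher and 1 lower under receptor centring, where 73.4% of all genes were higher and 7.80% lower. On the positive control rows 2 were higher and 4 lower, beside 8.46% and 51.9% of all genes.

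**Figure D3:**
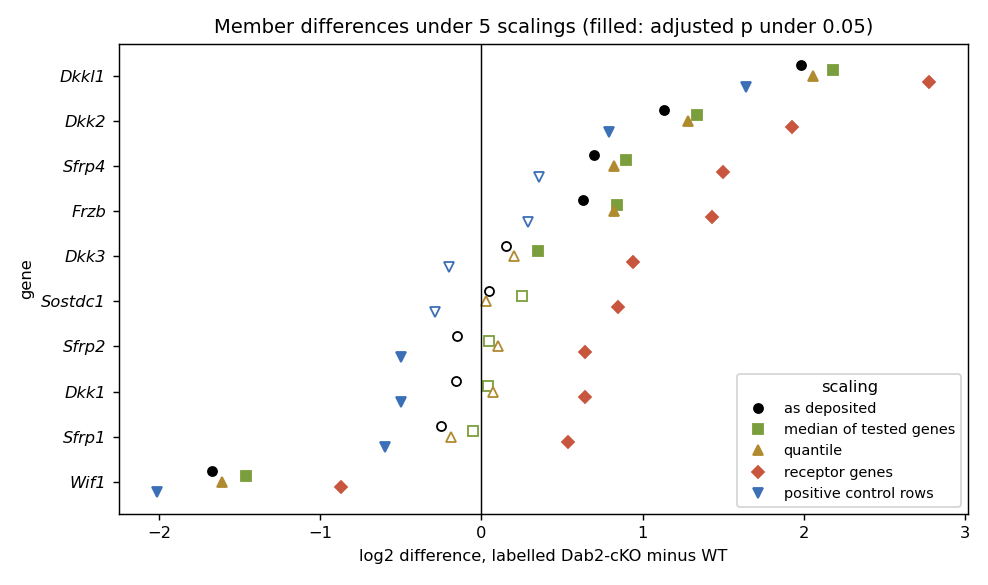
Log2 difference, arrays labelled Dab2-cKO minus WT (x axis), of each antagonist gene (y axis) with the deposited values and under 4 other scalings, with filled symbols for an adjusted p under 0.05. Wif1 stays left of 0 and Frzb, Sfrp4, Dkk2 and Dkkl1 stay right of it in all 5, while the other 5 genes cross 0.

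The proteins on which Dkk1, Dkk2 and Sostdc1 act were measured on the same arrays. Of the 5 receptor genes listed, 1 was higher and 2 were lower, beside 18.3% and 32.4% of all genes, with a median difference of -0.24. Lrp6, the main co-receptor bound by Dkk1, fell from 9.36 ± 0.17 to 8.97 ± 0.06 (SD, n = 3), a difference of -0.39 (adjusted p = 0.0211), while Lrp5 differed by 0.22 (adjusted p = 0.0532). Lrp4, which Sostdc1 also binds, rose by 0.71 (adjusted p = 0.00119), although its signal was below the background level. Kremen2 fell by 0.30 (adjusted p = 0.0176), also below that level, and Kremen1 differed by -0.24 (adjusted p = 0.105). Lrp4 kept its sign in all 5 scalings (0.36 to 1.50), whereas Lrp6 (0.41) and Kremen2 (0.50) turned positive under receptor centring. Of the 4 BMP ligands that Sostdc1 can bind, 1 was lower and none higher as deposited, beside 32.4% and 18.3% of all genes. Under receptor centring 3 of these ligands were higher, where 73.4% of all genes were.

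Frizzled receptors bind the ligands that Sfrp proteins and Wif1 hold back. Of 10 Frizzled genes, 6 fell and 1 rose, beside 32.4% and 18.3% of all genes, with a median difference of -0.37. Fzd4 rose from 6.52 ± 0.16 to 9.48 ± 0.46 (SD, n = 3), with WT below the background level, so that it was at least 4.64-fold higher (adjusted p = 0.000205), and kept its sign in all scalings. Fzd6 fell by 0.73 (adjusted p = 0.00121) and Fzd1 by 0.59 (adjusted p = 0.0133), and both turned positive under receptor centring (0.07 and 0.20). There 6 Frizzled genes were higher and 1 lower, beside 73.4% and 7.8% of all genes. The 21 genes of Wnt ligands and their secretion held 4 that rose and 6 that fell, beside 18.3% and 32.4% of all genes. With receptor centring this list had 17 higher and 2 lower, beside 73.4% and 7.8%. Of this list only Wls, whose protein brings Wnt ligands to the cell surface, lay above the background level. It fell from 11.37 ± 0.17 to 10.11 ± 0.17 (SD, n = 3, adjusted p = 0.00052), and by 0.46 under receptor centring.

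Other secreted regulators gave little signal. Of 7 further secreted Wnt inhibitors, none was higher and 3 were lower, beside 18.3% and 32.4% of all genes. Receptor centring, with 73.4% of all genes higher, turned the counts to 6 higher and none lower. The 3 that were lower as deposited, Sost, Cer1 and Notum, had signals below the background level in both groups. Igfbp4, the one above that level, was 8.78 ± 0.08 in WT and 8.74 ± 0.06 on the arrays labelled Dab2-cKO (SD, n = 3, adjusted p = 0.659). Of the 4 R-spondins, which strengthen Wnt signalling, Rspo1 rose by 0.82 (adjusted p = 0.00223) and Rspo2 and Rspo3 fell. All 4 lay below the background level, and the shares of all genes were 18.3% higher and 32.4% lower. Rspo1 kept its sign in all scalings (0.47 to 1.61), whereas Rspo2 (0.39) and Rspo3 (0.29) turned positive under receptor centring. Among 10 tested β-catenin readouts, 6 were lower and none was higher, beside 32.4% and 18.3% of all genes, with a median difference of -0.95. Axin2 (0.20), Nkd1 (0.00), Sp5 (-0.09) and Myc (0.12) did not pass the test. Lef1 fell from 9.40 ± 0.43 to 5.19 ± 0.07 (SD, n = 3, adjusted p = 4.11e-05), at least 4.40-fold, and Bambi from 9.79 ± 0.74 to 6.26 ± 0.39 (adjusted p = 0.000708), at least 5.76-fold, both ending below the background level. Nkd2 fell by 1.34 (adjusted p = 0.0109). Under receptor centring 4 readouts were higher and 3 lower, beside 73.4% and 7.8% of all genes. Lef1, Bambi and Nkd2 kept their sign in all scalings, as did Znrf3 and Lgr5.

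**Figure D4:**
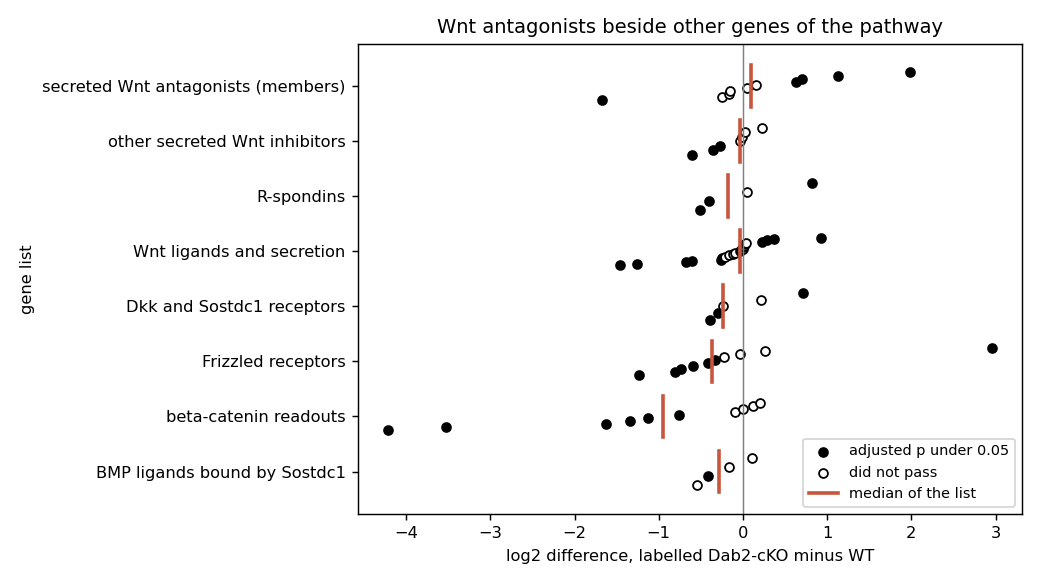
Log2 difference, arrays labelled Dab2-cKO minus WT (x axis), of single genes (points, filled for an adjusted p under 0.05) in the antagonist list and 7 other lists of the pathway (y axis), with the list's median as a red bar. The antagonists have a median of 0.10 and span -1.67 to 1.98, the β-catenin readouts have a median of -0.95, and the single Frizzled gene far to the right is Fzd4 (2.96).

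Markers of cells that are known to make several of these antagonists moved in the same arrays. Over the 14 tested fibroblast markers, 13 were higher and 1 was lower, and their summed log2 signal ran from 117.4 to 120.8 in WT and from 144.3 to 149.8 on the arrays labelled Dab2-cKO. Over 14 dermal papilla markers, 1 was higher and 7 were lower, beside 18.3% and 32.4% of all genes. Their summed signals ran from 81.8 to 82.5 in WT and from 77.7 to 77.8 on the arrays labelled Dab2-cKO. Of these markers 11 lay below the background level in both groups, Corin, Sox2 and Alx4 among them. After median centring 2 dermal papilla markers were higher and 2 lower, beside 27.9% and 19.8% of all genes. Under receptor centring 11 dermal papilla markers were higher and 1 lower, a share near the 73.4% of all genes that were higher there. Over 10 hair germ and matrix markers all 10 were lower, with Lef1 and Bambi counted among the β-catenin readouts as well. The part of fibroblasts, dermal papilla or the shift in hair cycle phase in the values of Dkkl1, Dkk2, Sfrp4, Frzb and Wif1 was not tested.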

How the data were processed

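From sorted HFSCs, 1 ng of RNA was amplified (GeneChip WT Pico) and read on Affymetrix mouse whole-transcript arrays. The values the authors deposited are log2 signals, 1 for each row of each array. Their notes to GEO list RMA and Affymetrix Expression Console, and no version. RMA subtracts background, equalises probe distributions between arrays and summarises probes, so a change of total RNA per cell is not visible. Which genome build the array annotation follows was not given in the sources used.

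The table has 72688 rows. Control rows (6732) entered no gene test. Among 65956 transcript rows, 31303 named 1 gene, 1509 several and 33144 none here, and symbols were resolved through a RefSeq gene table (GRCm38.p6). For 439 genes with several rows the row with the highest mean was taken. Each of the 10 antagonist genes had 1 row, and none overlapped another gene of that table.

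Groups came from sample titles. The arrays labelled Dab2-cKO were compared with WT by limma (version 3.58.1, R 4.3.3) with lmFit and eBayes over 30749 genes, no covariate, two-sided p-values and Benjamini-Hochberg adjustment at 0.05. The script was tested on simulated data. A fold change is written "at least" where the dimmer group lay below the background level and is then computed against that level. Such a fold holds for the deposited scale, on which the receptor genes were not level between groups. The background level came from 1532 receptor genes. The number of arrays limits precision, and no detection calls were used. Members, lists, the rule for named genes (all 10 antagonists, direct receptors, and up to 3 called genes above background from each other list) and tests were chosen with earlier results of these data known. Igfbp4, Rspo1, Rspo2, Rspo3, Sost, Cer1, Notum, Cd34, Itga6, Lhx2, Sox9, Lgr5, Tbx1, Foxc1, Corin, Sox2, Alx4, Axin2, Nkd1, Sp5, Myc and Znrf3 were named outside this rule after their values were seen. Some genes stand on several lists, Lef1, Bambi, Lgr5, Rspo2 and Rspo3 among them. Alternatives were other scalings, filters, spread estimates, rows per gene, the replicate block and leaving out each array. The 90th percentile background level was added after seeing the data.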

Additional observations from a re-analysis of the deposited data

How the results depend on the processing

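Of the 15 alternative settings, Dkkl1 and Wif1 kept direction and call in all 15, and Dkk2 in the 14 in which it was tested. Not all of these settings could turn a sign. Changing the filter, the spread estimate, the rows per gene or the block left the differences of these genes as deposited. In the setting limited to genes above the background level, Dkkl1 and Wif1 entered only through their brighter group. The call was lost for Sfrp4 and Frzb on the positive control rows. The median difference of the 10 genes was 0.30 after median centring, 0.89 under receptor centring and -0.25 on the positive control rows. Receptor centring gave 9 higher antagonist genes and 24959 calls over all genes, with 73.4% of all genes higher. With the positive control rows as centre, 2 were higher and 4 lower, beside 8.46% and 51.9% of all genes. Among genes above the background level, which left 3 antagonist genes, 1 was higher and 1 lower. Of the 8829 genes tested there 6057 were called, 34.0% higher and 34.6% lower. Among protein-coding genes 4 antagonist genes were higher and 2 lower, beside 26.9% and 29.1% of the genes tested. Of 15563 genes called as deposited, 36.1% were higher, against 58.5% after median centring, 55.7% with quantile normalization, 90.4% under receptor centring and 14.0% on the positive control rows. These splits follow from the shifts between reference rows, and why the rows differ was not tested.

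Leaving out 1 array gave 4 higher antagonist genes each time and 1 to 2 lower (2 without WT replicate 1, when Sfrp1 passed). Medians ran from 0.05 to 0.16, with 12395 to 14164 calls over all genes. The shares of all genes ran from 15.3% to 17.1% higher and from 25.1% to 28.9% lower. Signs turned for genes that had not passed: Sfrp2 to 0.05 and Dkk1 to 0.04 after median centring, to 0.10 and 0.07 with quantile normalization, and to 0.64 and 0.64 under receptor centring. Sfrp1 turned to 0.54 under receptor centring. On the positive control rows Sostdc1 turned to -0.29 and Dkk3 to -0.20. With 1 array left out, Sostdc1 ran from -0.04 (without Dab2-cKO replicate 2) to 0.12, and was -0.01 without WT replicate 1. The replicate numbers name samples only: deviations of same-numbered arrays correlated at -0.08, -0.22 and -0.02. With the replicate number as a block, 4 antagonist genes were higher and 1 lower, beside 15.3% and 26.1% of all genes. In all 12721 genes were called there.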
